A study of Homo sapiens with 6 samples.

Results

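The genes described here are 10 imprinted genes, chosen by name from the classical imprinted loci: H19, IGF2, CDKN1C, PHLDA2, MEG3, DLK1, PEG3, GNAS, SNRPN and MEST. They are 10 of 58419 annotated genes on chromosomes 1 to 22 and X. Their RefSeq gene bodies (GRCh38.p14), each widened by 20 kb on either side, were searched for peaks of acetylated NEIL1 (AcNEIL1). NEIL1 is a repair enzyme, a DNA glycosylase that cuts oxidised bases out of DNA.

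The cells were HCT116, a cell line from a human colorectal carcinoma, and the method was ChIP-seq, the sequencing of DNA that comes down with a protein from crosslinked chromatin. Growing, formaldehyde-crosslinked cells gave 3 ChIP libraries, made with a custom rabbit antibody against acetylated NEIL1, and 3 input libraries. Each input was the authors' control for the ChIP library of its number. All libraries came from the same untreated line, so every comparison is between the imprinted genes and all genes, or between replicates. The ChIP libraries held 28814429 to 35222701 tags and the inputs 32877739 to 37772127 tags after the caller's duplicate filter, and 39898, 60233 and 49731 peaks were called in replicates 1, 2 and 3. The labels do not say whether replicates were separate cultures, and their spread may be technical. The lists do not separate the parental alleles, and expression and DNA methylation of these genes in HCT116 were not analysed here.

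Imprinted genes are expressed from the copy inherited from one parent, and most lie in clusters with genes expressed from the other copy. Each cluster is governed by a control region that carries DNA methylation on one parental copy, set in the germ line. Many control regions are promoters of non-coding RNAs, and factors that read them include CTCF, which binds the unmethylated copy upstream of H19, and the zinc-finger protein ZFP57, which binds methylated copies. H19, CDKN1C, PHLDA2 and MEG3 are known as maternally expressed genes. IGF2, DLK1, PEG3, SNRPN and MEST are known as paternally expressed genes, and GNAS makes different transcripts from the maternal and the paternal copy.

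AcNEIL1 peaks clustered around the imprinted genes of chromosomes 11 and 14 and were sparse or missing around the others. The 10 windows held 87, 126 and 113 peaks in replicates 1, 2 and 3 (108.7 ± 19.9, SD, n = 3), and 96.6%, 92.1% and 99.1% of these lay in the 6 windows on chromosomes 11 and 14. H19, IGF2, CDKN1C, PHLDA2, MEG3 and DLK1 each held at least 11 window peaks in every replicate. GNAS held between 1 and 9, MEST held 1 peak in replicate 2 alone, and PEG3 and SNRPN held 0 in all 3 replicates. These members are not independent of each other: 4 share a chromosome 11 region, MEG3 and DLK1 share a chromosome 14 region, and genes of a region with many peaks all tend to have peaks.

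**Figure D1:**
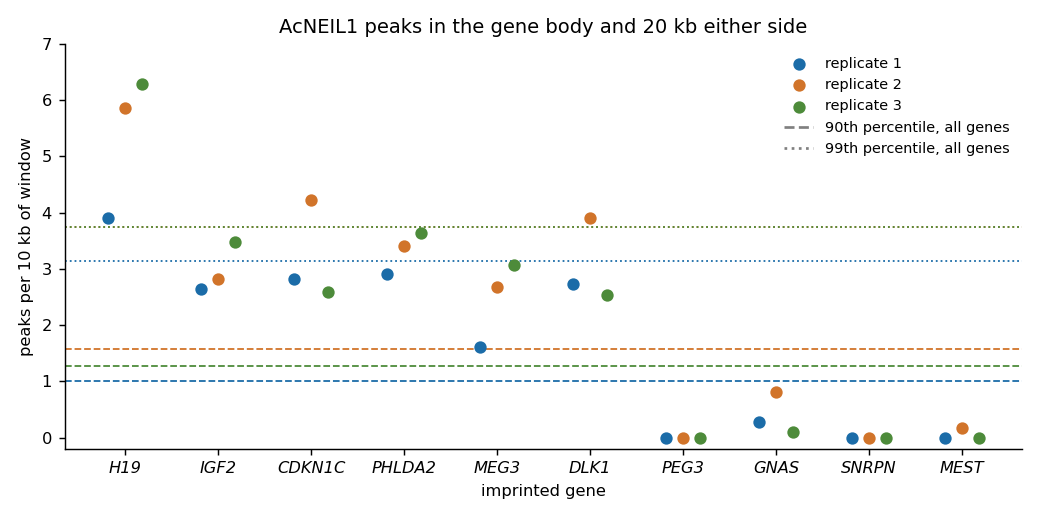
Peaks per 10 kb of window (gene body and 20 kb on either side, vertical axis) for each imprinted gene (horizontal axis) in the 3 ChIP replicates (points), with the 90th (dashed) and 99th (dotted) percentile over all genes for each replicate in the same colour. The 6 genes on chromosomes 11 and 14 sit between 1.60 and 6.29, all above the 90th percentile of their replicate, and H19 is above the 99th in all 3; the 99th percentile lines of replicates 2 and 3 coincide.

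By gene, 5 of the 10 imprinted genes (H19, IGF2, CDKN1C, MEG3 and DLK1) had a peak within 1 kb of an end of the gene body in at least 2 replicates, against 10.2% of all genes. In all 3 replicates 4 of 10 did (H19, IGF2, MEG3 and DLK1), against 5.84% of all genes. That second count depended on the setting: it was 2 with lists of equal length (H19 and MEG3), 1 with peaks of −log10 q of 5 or more (MEG3), 1 with end windows of 500 bp (IGF2) and 6 with end windows of 5 kb, against 5.03%, 2.15%, 3.89% and 14.3% of all genes. Of the 9 imprinted genes long enough to have an interior between the end windows, 5 had a peak wholly inside it in at least 2 replicates (H19, IGF2, MEG3, DLK1 and GNAS), against 18.3% of the genes that long. In all 3 replicates 4 of 9 did (IGF2, MEG3, DLK1 and GNAS), against 12.3%. With peaks of −log10 q of 5 or more 2 of them (IGF2 and MEG3) kept it, against 3.19% of all genes, short ones included. On that base the share in all 3 replicates was 7.81% at the authors' cutoff. Anywhere in the window, 7 of 10 had a peak in at least 2 replicates, against 35.5% of all genes, and the same 7 had one in all 3, against 27% of all genes. Without replicate 2 or without replicate 3, when a peak was asked in both others, CDKN1C lost its end call and H19 its interior call, and 4 genes were left in each count. Over all genes, short ones included, the shares were then 6.50% and 7.20% for ends and 8.75% and 8.89% for interiors. With peaks of −log10 q of 5 or more, 3 genes had an end peak and 3 an interior peak in at least 2 replicates, against 4.80% and 5.84% of all genes; on that base, which includes genes too short for an interior, the share with an interior peak was 11.7% at the authors' cutoff. Genes differ in length and neighbours share peaks, so these counts describe the 10 genes and were not tested.

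Divided by the expressed copy, the 4 maternally expressed genes held 54, 79 and 78 window peaks in replicates 1, 2 and 3, and 3 of them had an end peak in at least 2 replicates. The 5 paternally expressed genes held 30, 38 and 34, all but 1 of them at IGF2 and DLK1, and 2 of the 5 had such an end peak. Members of both kinds thus lay in the peak-rich regions, and the 3 members with at most 1 peak were all paternally expressed. Expressed copy and chromosome region cannot be told apart in a list of this length.

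Pooled over the 10 windows, peak strength was close to that of all peaks. The median fold enrichment at the summit, the authors' own value, was 3.41, 3.41 and 3.67 in replicates 1, 2 and 3 in the windows, against 3.42, 3.40 and 3.61 over all peaks. The H19 window was higher, with a median fold of 3.86, 4.14 and 4.20. Median pileup, the number of overlapping extended tags at the summit, was 22, 24 and 20.04 tags in the windows against 20, 21 and 19.08 over all peaks. Median width was 455, 614.5 and 449 bp in the windows against 401, 478 and 384 bp over all peaks. The local background recovered from fold and pileup moved the same way, at 5.46, 5.83 and 4.73 tags in the windows against 4.94, 5.34 and 4.48 tags over all peaks. Its part in the number of peaks was not tested. When overlapping peaks of the 3 lists were merged, the windows held 131 regions. All 3 replicates had a peak in 40 of them (30.5%), against 13.2% of the 85534 merged regions of the whole genome. Peaks were wider in the windows and dense in most of them, which makes overlap between lists easier. These shares were not adjusted for that.

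H19, a maternally expressed long non-coding RNA, had the highest peak density of the 10 genes. Its body lies at chr11:1995176-2001266 on the minus strand, so that transcription runs towards the lower coordinate. The window held 18, 27 and 29 peaks in replicates 1, 2 and 3, or 3.91, 5.86 and 6.29 per 10 kb. The density was 5.35 ± 1.27 per 10 kb (SD, n = 3), while the median gene had 0 and 0.390%, 0.0359% and 0.0240% of all genes were at least as dense in replicates 1, 2 and 3. All 3 replicates were high, with replicate 1 the lowest. Peaks covered 17.5%, 57.5% and 30.8% of the window, with a widest peak of 821, 3079 and 986 bp.

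Within the annotated H19 body the peaks lay towards the 3′ end and away from the outermost annotated start, while both flanks held peaks. The low-coordinate end, where the transcript ends, had 1, 3 and 3 peaks within 1 kb, with a strongest fold of 3.25, 5.92 and 6.06 and a strongest pileup of 18, 32 and 23.85 tags. The high-coordinate end, the annotated start, had 0 in each replicate. The longest stretch of the window without a peak in any list, 7.195 kb (chr11:1997828-2005022), held that start. From the start the nearest peak was 4.83, 3.56 and 3.44 kb away downstream and 7.78, 3.76 and 5.34 kb upstream in replicates 1, 2 and 3. The control region of H19 and IGF2, whose unmethylated copy binds CTCF, is known to lie upstream of the classical H19 transcription unit. The annotation used here marks no borders for it. The body used here is also longer than the classical unit, so the control region may lie partly inside this body. The distances refer to the outermost annotated start. The promoter entries used here hold no other start of H19. Peaks reached up to chr11:1996436, 1997707 and 1997827 inside the body in replicates 1, 2 and 3. Their distance to the classical start was not analysed, so peaks may lie close to it. For the outermost start, the 250 bases before it and the 50 from it on are shown (RefSeq, GRCh38.p14, chr11:2001217-2001516, minus strand). They were chosen because none of the 3 lists has a peak there. The sequence was searched on both strands for short core letters of motifs: GGNGGCAG for CTCF, TGCCGC for ZFP57 and GCCATNTT for YY1, a zinc-finger factor that binds several imprinted promoters. It holds none of them, so no letters are in capitals.
H19 promoter: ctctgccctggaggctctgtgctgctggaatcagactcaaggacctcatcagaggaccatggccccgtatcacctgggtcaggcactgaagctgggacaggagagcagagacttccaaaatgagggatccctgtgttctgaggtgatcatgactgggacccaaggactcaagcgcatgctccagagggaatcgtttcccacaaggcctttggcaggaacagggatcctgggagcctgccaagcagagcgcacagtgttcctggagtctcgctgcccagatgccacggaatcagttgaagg

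The microRNA gene MIR675 (chr11:1996759-1996831), whose microRNAs are cut from the H19 RNA, lies in the low-coordinate part of the annotated H19 body. Its hairpin was overlapped by a peak in replicates 2 and 3 and not in replicate 1. The mature sequences (RefSeq, GRCh38.p14) are shown because this hairpin lies in a merged region within 1 kb of an H19 end (chr11:1995221-1996959). The peak over the hairpin was an end peak of H19 in replicate 2 and an interior peak in replicate 3. Capitals mark the seed, bases 2 to 8.
hsa-miR-675-5p: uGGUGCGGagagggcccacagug
hsa-miR-675-3p: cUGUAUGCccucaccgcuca

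The flank below H19 held 9, 10 and 9 peaks in replicates 1, 2 and 3, and the flank above, upstream of the start, held 8, 13 and 15. Of the 5 regions of the lower flank shared by all replicates, 4 lay within 1 kb of an end of MRPL23-AS1 or LINC01219, both long non-coding RNA genes. All 5 lay inside the annotated span of MRPL23, a mitochondrial ribosomal protein gene. The region at chr11:1982399-1985520 had fold 4.06, 6.07 and 5.66 and pileup 21, 35 and 28.62 tags in replicates 1, 2 and 3 (fold 5.26 ± 1.06, SD, n = 3). The region at chr11:1992063-1993591 had fold 6.15, 3.03 and 5.78 (4.98 ± 1.70). In the upper flank the widest shared region, chr11:2011233-2015202, had fold 3.88, 4.48 and 4.43 and pileup 18, 24 and 17.17 tags. That region was the more even over replicates, with a mean fold of 4.26 ± 0.34.

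IGF2 encodes a growth-promoting peptide hormone and is expressed from the paternal copy. Its body lies at chr11:2129117-2149566, and the window held 16, 17 and 21 peaks in replicates 1, 2 and 3, or 2.65, 2.81 and 3.47 per 10 kb (2.98 ± 0.44, SD, n = 3). The low-coordinate end had 2, 3 and 1 peaks within 1 kb, and the strongest end peak had fold 3.09, 4.89 and 2.66 and pileup 23, 35 and 22.9 tags. The high-coordinate end had 0, 1 and 0. The interior held 4, 3 and 8 peaks. A region near the high end, chr11:2143810-2148762, held 3, 2 and 5 peaks, with a strongest fold of 3.97, 3.11 and 5.84 (4.31 ± 1.39). In replicate 2 that strongest peak is the high-end peak, and in the other replicates all peaks of the region are interior ones. It lay within 1 kb of the high-coordinate end of IGF2-AS, the antisense transcript of IGF2. MIR483 (chr11:2134134-2134209), a microRNA gene inside the IGF2 body, was overlapped in replicates 2 and 3.

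By pileup, the highest peak of all 10 windows lay in every replicate in the upper IGF2 flank, in a region over the insulin gene INS, the read-through gene INS-IGF2 and TH, which encodes tyrosine hydroxylase, the rate-limiting enzyme of dopamine synthesis. The merged region spans 8650 bp (chr11:2156922-2165571). Its strongest peak by fold had fold 4.46, 7.70 and 4.97 in replicates 1, 2 and 3 (5.71 ± 1.74, SD, n = 3). The highest pileup in the IGF2 window was 77, 130 and 44.84 tags, the widest peak there 4874, 7280 and 2155 bp. Replicate 2 was the highest in each of these values and replicate 3 the lowest in pileup and width. By fold, peaks of the H19 window were stronger in replicates 1 and 3, at up to 6.19 and 6.76. Local background was high as well: it was 16.5 and 16.0 tags at the strongest peak of replicates 1 and 2 and 6.30 tags at that of replicate 3, against a median of 6.51, 7.63 and 6.0 tags over the IGF2 window. The INS promoter (RefSeq, GRCh38.p14, chr11:2161160-2161459, minus strand) is shown because a peak of every replicate overlaps it. Capitals mark a GGNGGCAG match, inside which the reverse complement of TGCCGC also lies.
INS promoter: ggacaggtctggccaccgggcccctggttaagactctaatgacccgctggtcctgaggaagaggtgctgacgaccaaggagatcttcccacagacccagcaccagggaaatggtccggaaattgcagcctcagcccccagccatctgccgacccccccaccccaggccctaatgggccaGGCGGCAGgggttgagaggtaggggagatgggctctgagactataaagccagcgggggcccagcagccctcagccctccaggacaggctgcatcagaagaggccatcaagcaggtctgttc

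**Figure D2:**
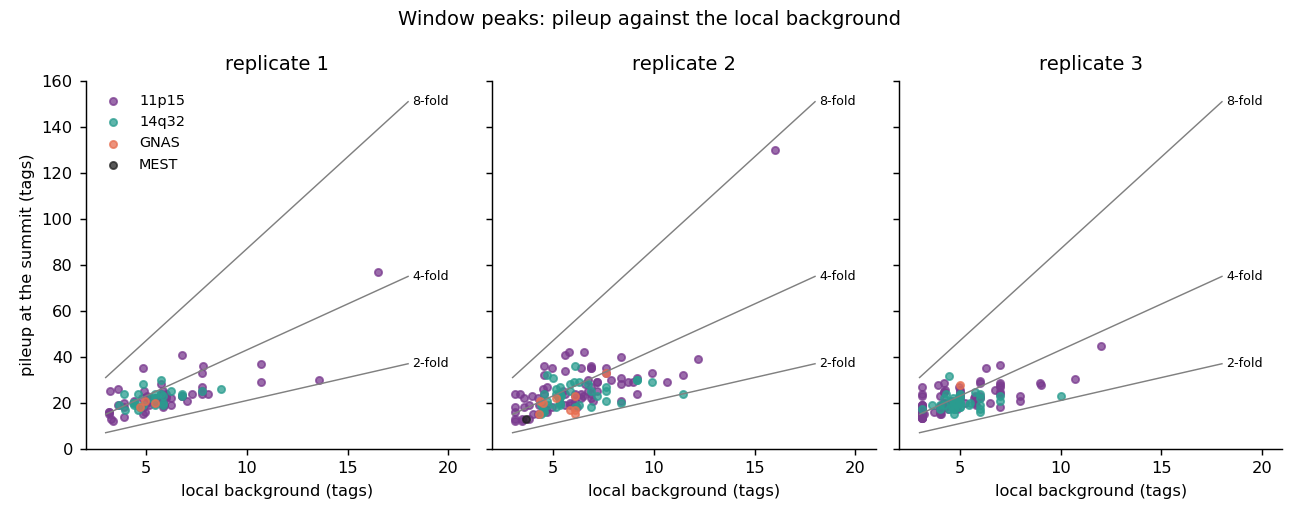
Pileup at the summit (tags, vertical axis) against the recovered local background (tags, horizontal axis) of every window peak in replicates 1, 2 and 3 (panels), coloured by locus (11p15: H19, IGF2, CDKN1C and PHLDA2; 14q32: DLK1 and MEG3), with lines of equal fold enrichment. All peaks lie between the 2-fold and 8-fold lines, and the highest peak of the INS and TH region, with 77, 130 and 44.84 tags, stands above all others of its panel at a high local background.

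CDKN1C encodes a cyclin-dependent kinase inhibitor that restrains growth and is expressed from the maternal copy. Its short body (chr11:2883218-2885775) held 0 peaks in every replicate. A stretch of 4.409 kb without a peak in any list (chr11:2882498-2886906) held the whole gene. The window nonetheless held 12, 18 and 11 peaks in replicates 1, 2 and 3, or 2.82, 4.23 and 2.58 per 10 kb (3.21 ± 0.89, SD, n = 3). The low-coordinate end had 0, 1 and 1 peaks within 1 kb, with fold 3.18 in replicate 2 and 3.98 in replicate 3. In replicate 1 the nearest peak below the body was 1.89 kb away. The high-coordinate end had 0 in all 3.

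The strongest peaks of the CDKN1C window lay between CDKN1C and PHLDA2. The merged region at chr11:2894669-2898732 lay within 1 kb of an end of SLC67A1, a transporter gene, through replicate 1 alone. It had fold 5.41, 4.37 and 4.66 and pileup 41, 40 and 36.26 tags (fold 4.81 ± 0.54, SD, n = 3). The pileups of the 3 replicates were close to each other there. On the other side, 2 shared regions lay within 1 kb of an end of KCNQ1DN, a neighbouring non-coding gene, with folds of 3.49 ± 0.37 and 3.99 ± 0.71. The former lay that close through replicate 2 alone, the latter through every replicate. The 42.497 kb between the bodies of CDKN1C and PHLDA2 held 18, 19 and 18 peaks in replicates 1, 2 and 3, or 4.24, 4.47 and 4.24 per 10 kb.

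PHLDA2 encodes a pleckstrin-homology protein that limits placental growth and is expressed from the maternal copy. Its body (chr11:2928273-2929420), the shortest of the 10 and too short for an interior class, held 0 peaks. One end peak was found, at the high-coordinate end in replicate 1, with pileup 24 tags and fold 3.72. The window held 12, 14 and 15 peaks in replicates 1, 2 and 3, or 2.92, 3.40 and 3.65 per 10 kb (3.32 ± 0.37, SD, n = 3). Of these, 10, 11 and 13 lay in the flank below, inside SLC67A1. The widest shared region there, 5400 bp at chr11:2913462-2918861, had fold 3.58, 5.71 and 3.28 (4.19 ± 1.33). Above the gene, the region at chr11:2931653-2932784 had fold 4.31, 3.67 and 5.09 (4.36 ± 0.71).

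**Figure D3:**
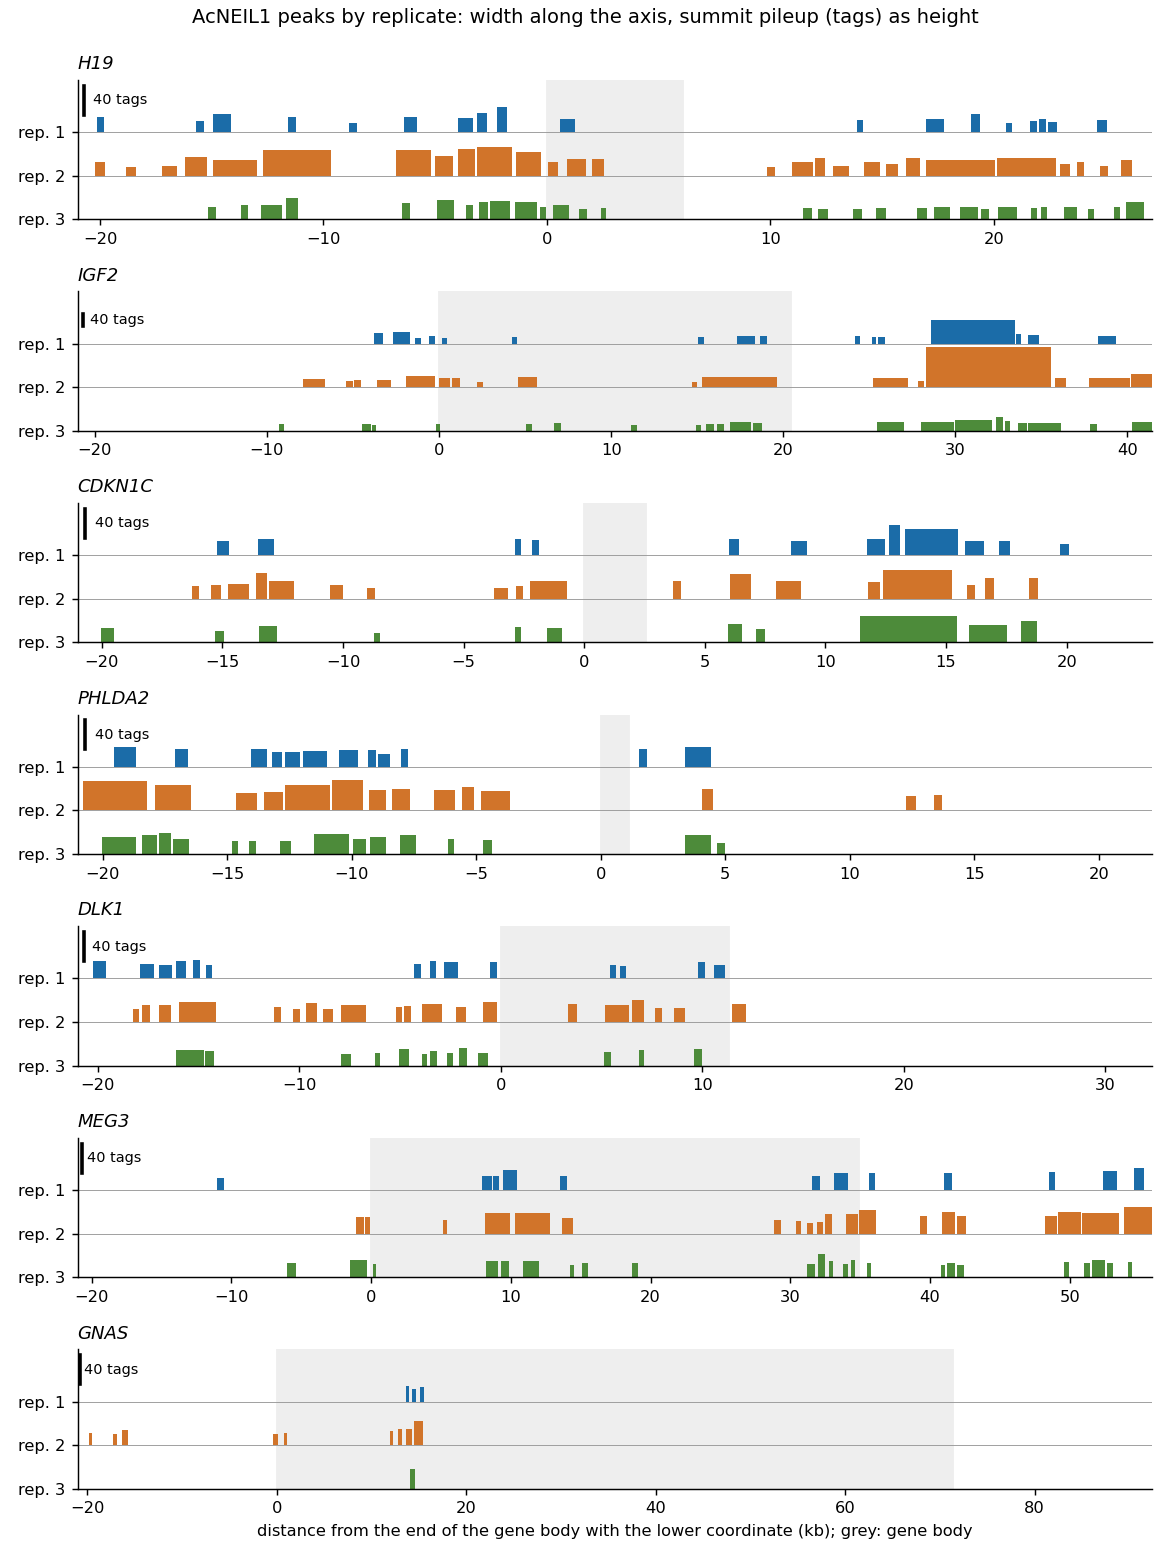
Peaks in the windows of H19, IGF2, CDKN1C, PHLDA2, DLK1, MEG3 and GNAS against distance from the lower-coordinate end of the gene body (kb, horizontal axis; grey, gene body); in each panel the rows are replicates 1, 2 and 3 from top to bottom, bar width is peak width and bar height is summit pileup (tags, scale bar of 40 tags per panel). Peaks stop inside the H19 body and resume 3.76 to 7.78 kb above it, the CDKN1C and PHLDA2 bodies are empty, and the GNAS body is empty beyond a cluster near its first starts.

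MEG3 is a maternally expressed long non-coding RNA with growth-restraining functions, and its promoter is a control region of the chromosome 14 cluster. Its body lies at chr14:100826108-100861026 on the plus strand. The window held 12, 20 and 23 peaks in replicates 1, 2 and 3, or 1.60, 2.67 and 3.07 per 10 kb (2.45 ± 0.76, SD, n = 3). Within 1 kb of the start there were 0, 2 and 2 peaks. The nearest peak was 0.081 kb from the first annotated start in replicate 2, 0.131 kb in replicate 3 and 7.95 kb in replicate 1. At the other end, the 3′ end, there were 2, 2 and 3, with a strongest end fold over both ends of 3.87, 5.78 and 4.14. The 3′ end was thus marked in all 3 replicates and the start in replicates 2 and 3.

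Inside MEG3 there were 5, 9 and 9 peaks. The widest shared region of the window, 4870 bp at chr14:100834058-100838927, had fold 4.95, 4.25 and 4.06 and pileup 28, 29 and 21.94 tags (fold 4.42 ± 0.47, SD, n = 3). A region near the 3′ end, chr14:100857326-100859196, had fold 3.69, 4.42 and 5.93 (4.68 ± 1.14). Between them lay 9.783 kb without a peak in any list. The MEG3 promoter (RefSeq, GRCh38.p14, chr14:100825858-100826157, plus strand) is shown because a peak of replicate 2 overlaps it and the peaks of replicate 3 lie on either side. It holds 1 match to TGCCGC, read on the reverse strand and set in capitals.
MEG3 promoter: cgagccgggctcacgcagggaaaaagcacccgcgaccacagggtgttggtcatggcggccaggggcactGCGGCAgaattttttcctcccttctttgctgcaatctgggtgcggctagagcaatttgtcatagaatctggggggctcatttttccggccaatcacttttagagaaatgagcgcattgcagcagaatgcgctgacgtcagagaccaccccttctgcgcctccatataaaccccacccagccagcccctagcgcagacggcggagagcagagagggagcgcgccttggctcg

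Downstream of MEG3 the flank reached the first microRNA genes of the cluster and RTL1, a paternally expressed gene derived from a retrotransposon. The shared region at chr14:100880006-100882577 lay within 1 kb of ends of RTL1 and MIR431 through its peak of every replicate. Its peaks of replicates 1 and 2 also lay within 1 kb of MIR433, and that of replicate 2 alone within 1 kb of MIR127. The region had fold 4.61, 5.21 and 3.99 (4.60 ± 0.61, SD, n = 3). Of the 9 microRNA genes in the 10 windows, 0 were overlapped by a peak in all 3 replicates, 3 in 2 replicates (MIR675, MIR483 and MIR431), 2 in 1 (MIR337 and MIR665, both in replicate 2) and 4 in none (MIR2392, MIR770, MIR493 and, in MEST, MIR335). No share over all annotated microRNA genes was counted, so the counts describe these 9 alone and cannot be read as many or few. The mature sequence of MIR431 is shown as the one overlapped in 2 replicates here, in replicates 1 and 2. No 2 of the 12 mature sequences of these genes found in the RefSeq table share a seed.
hsa-miR-431-5p: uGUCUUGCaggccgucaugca

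DLK1, the paternally expressed partner of MEG3, encodes a transmembrane protein related to Notch ligands that holds back adipocyte differentiation. Its body lies at chr14:100726892-100738224. The window held 14, 20 and 13 peaks in replicates 1, 2 and 3, or 2.73, 3.90 and 2.53 per 10 kb (3.05 ± 0.74, SD, n = 3). Replicate 2 was the highest. The low-coordinate end had 1 peak within 1 kb in each replicate, all in one region (chr14:100725750-100726720) with fold 3.52, 3.75 and 2.60 and pileup 23, 28 and 17.17 tags. The high-coordinate end had 1, 1 and 0. The interior held 3, 5 and 3 peaks, and a shared region there, chr14:100732020-100733237, had fold 3.33, 3.83 and 3.84 (3.66 ± 0.29).

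Peaks around DLK1 lay on one side. The flank below held 9, 13 and 9 peaks in replicates 1, 2 and 3, and the flank above held 0 in each. The upper flank was without a peak in any list for 19.158 kb up to the border of the window. Over the whole 87.883 kb between DLK1 and MEG3 there were 7, 22 and 13 peaks, or 0.797, 2.50 and 1.48 per 10 kb. Replicate 1 thus had the fewest here. The germ-line control region of the cluster is known to lie in this interval. The annotation used here marks no borders for it, so the counts describe the interval and not the control region. The flank below MEG3 held 1, 0 and 1 peaks outside the end window in replicates 1, 2 and 3. Its outermost 8.994 kb held no peak in any list. The 127.85 kb between H19 and IGF2 held 23, 38 and 27, or 1.80, 2.97 and 2.11 per 10 kb.

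GNAS encodes the stimulatory G-protein alpha subunit and uses several alternative first exons, some maternally and some paternally expressed. Its body lies at chr20:58839748-58911192 on the plus strand. The window held 3, 9 and 1 peaks in replicates 1, 2 and 3, or 0.269, 0.808 and 0.0897 per 10 kb (0.389 ± 0.374, SD, n = 3). At this density 22.2%, 18.1% and 34.1% of all genes were at least as dense. The replicates differed by up to 9 times in count, and replicate 2 held most of the peaks. The interior held 3, 4 and 1 peaks, and the only region shared by all 3, chr20:58853398-58855302, had fold 3.70, 3.94 and 4.78 and pileup 21, 33 and 27.67 tags (fold 4.14 ± 0.57).

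The 5 separate GNAS starts differed in their distance to peaks. The first 2 had a peak within 1 kb in replicate 2 and lay at least 11.8 kb from one in replicates 1 and 3. The third lay just before the shared region, within 1 kb of a peak in all 3 replicates if its later entry is taken (0.445, 0.035 and 0.861 kb in replicates 1, 2 and 3). The last 2, at positions 58888413 and 58889180, lay at least 33.1 kb from any peak, and the body and flank above the shared region were without a peak in any list for 75.89 kb. The promoter of the later entry of the third start (RefSeq, GRCh38.p14, chr20:58852731-58853030, plus strand) is shown as the member promoter nearest to peaks of all replicates. A peak of replicate 2 overlaps it. It holds 2 matches to GGNGGCAG, set in capitals.
GNAS promoter: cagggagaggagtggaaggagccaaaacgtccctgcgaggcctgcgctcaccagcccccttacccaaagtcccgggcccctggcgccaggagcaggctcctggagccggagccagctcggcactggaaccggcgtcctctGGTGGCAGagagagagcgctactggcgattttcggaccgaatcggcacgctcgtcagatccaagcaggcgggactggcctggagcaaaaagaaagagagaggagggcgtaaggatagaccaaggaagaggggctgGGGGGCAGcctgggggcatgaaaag

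MEST encodes a protein of the alpha/beta-hydrolase family, is expressed from the paternal copy and hosts MIR335. Its body lies at chr7:130486175-130506465 on the plus strand. The window held 0, 1 and 0 peaks in replicates 1, 2 and 3. The one peak, chr7:130487682-130487975, was 294 bp wide with pileup 13 tags and fold 3.01, below the median peak of its replicate in width, pileup and fold. In replicates 1 and 3 the nearest peaks lay 97.94 and 100.4 kb below the body and 333.6 and 333.5 kb above it. 

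PEG3, a zinc-finger transcription factor gene expressed from the paternal copy, had 0 peaks in its body (chr19:56810082-56840726) and in its window in all 3 replicates. The stretch without peaks around it was 1.09, 0.982 and 1.58 Mb long in replicates 1, 2 and 3, and ranked 7, 5 and 6 in length on chromosome 19. The nearest peak lay 390, 387 and 390 kb above the body and 672, 565 and 1158 kb below it. The stretch held 56, 49 and 75 annotated genes. On chromosome 19, 35.3% of genes had no window peak in any replicate, and 56.9% had one in at least 2.

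SNRPN encodes a protein of the small nuclear ribonucleoproteins that splice pre-mRNA. It is expressed from the paternal copy, and its promoter region is part of the control region whose loss is known from Prader-Willi syndrome. Its body (chr15:24823637-24978723), the longest of the 10, and its window held 0 peaks in all 3 replicates. The stretch without peaks around it was 4.66, 4.65 and 5.05 Mb long in replicates 1, 2 and 3. It was the longest stretch between neighbouring peaks on chromosome 15 in each list, and it ranked 105, 92 and 85 among all such stretches of the genome. It held 150, 149 and 165 annotated genes, 12, 11 and 16 of them protein-coding. A window without peaks was not unusual in itself: of the genes with a window at least as long, 49.9% had no peak in any replicate, and 48.5% did for PEG3. The lists give no read depth outside peaks, so whether reads could be placed in these stretches was not analysed here.

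The SNRPN start that is also the start of SNURF, an upstream reading frame of the same transcript, is shown (RefSeq, GRCh38.p14, chr15:24954737-24955036, plus strand) as a promoter of a known control region far from any peak. The nearest peak was 1514, 1514 and 1675 kb away in replicates 1, 2 and 3. It holds 2 matches to TGCCGC, 1 of them on the reverse strand, set in capitals.
SNRPN promoter: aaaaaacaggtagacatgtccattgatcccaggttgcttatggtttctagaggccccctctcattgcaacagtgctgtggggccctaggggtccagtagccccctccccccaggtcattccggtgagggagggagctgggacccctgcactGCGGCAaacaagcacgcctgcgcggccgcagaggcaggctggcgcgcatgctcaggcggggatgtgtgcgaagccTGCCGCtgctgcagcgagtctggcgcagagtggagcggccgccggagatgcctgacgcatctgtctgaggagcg

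Such letters are common. GGNGGCAG was found in 16.7% of the 34961 promoters of 300 bp in the RefSeq table, TGCCGC in 16.8% and GCCATNTT in 6.58%. In the promoters overlapped by a peak in at least 2 replicates the shares were 26.1%, 15.8% and 2.26%, a description with no test. Those promoters had a median GC content of 63.3%, against 58.7% in all promoters.

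Starts were counted through promoters. The RefSeq promoter table matched 5 of the 10 genes (H19, MEG3, GNAS, SNRPN and MEST), with 19 entries at 14 separate starts. Of these starts 3 had a promoter overlapped by a peak in 1 replicate, and 11 in none, while 8.34% of all promoters were overlapped in at least 1 replicate. In at least 2 replicates 0 of 14 were overlapped, against 3.93% of all promoters. With 14 starts at 5 genes, neither count can be read as more or fewer than the background.

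**Figure D4:**
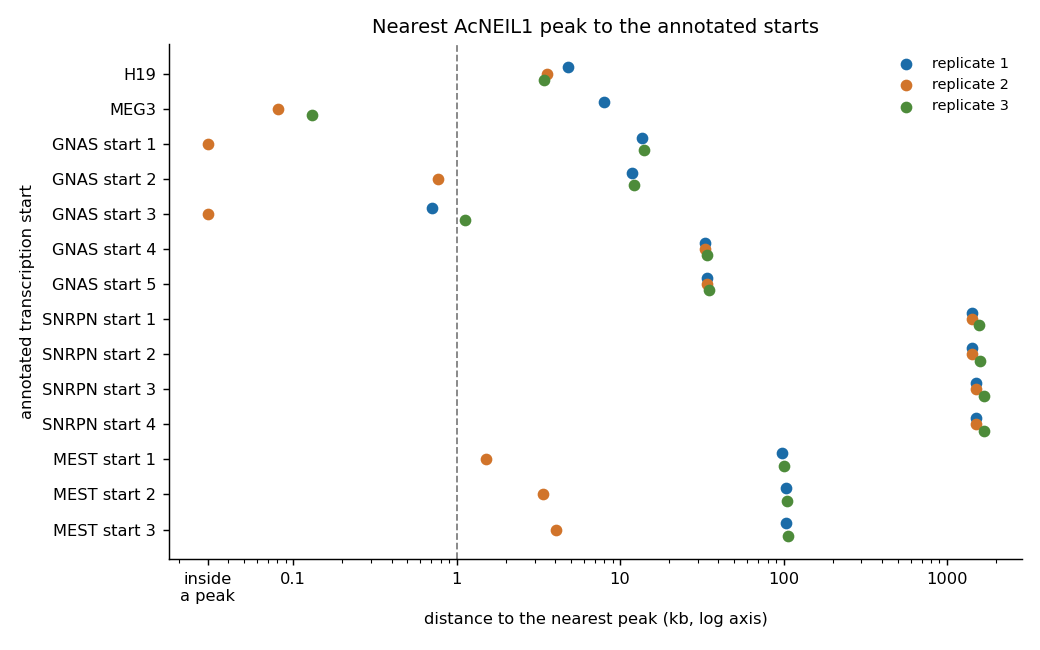
Distance to the nearest peak (kb, log axis; points at the left mark a start inside a peak) of the 14 separate annotated starts of H19, MEG3, GNAS, SNRPN and MEST (vertical axis, in coordinate order within a gene) in replicates 1, 2 and 3; the dashed line marks 1 kb and the first entry of each start is drawn. H19 lies at 3.44 to 4.83 kb in all replicates, the MEG3 start is within 1 kb in replicates 2 and 3, and every SNRPN start is at least 1416 kb from a peak.

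Control regions were approached through the ends of the transcripts known to start at them, since no entry of the annotation used here names one. KCNQ1OT1, the paternally expressed antisense RNA that starts at the control region of CDKN1C and PHLDA2, had 0 peaks within 1 kb of either end. From its high-coordinate end, known as its start, the nearest peak was 4.87, 1.60 and 2.61 kb away in replicates 1, 2 and 3. GNAS-AS1 had end peaks in replicate 2 alone. The ends of SNURF, of ZIM2, which shares its high-coordinate end with PEG3, and of MESTIT1, an antisense transcript at MEST, had 0 in all 3 replicates. MEG3 was the only one of these transcripts with a peak within 1 kb of its outermost annotated start in more than 1 replicate. H19 was counted from its outermost start too, and the start of its shorter, classical unit was not analysed here. In the peak-rich regions of chromosomes 11 and 14 a distance of a few kb to the next peak is common, and the spacing at these starts was not tested against it.

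The wider surroundings followed a similar division, apart from MEST. In the megabase centred on the gene, the 4 genes of chromosome 11 had between 1.63 and 2.55 peaks per 10 kb and the 2 of chromosome 14 between 1.38 and 1.86, against a median of 0.08, 0.12 and 0.09 over all genes in replicates 1, 2 and 3. GNAS had 0.40, 0.73 and 0.53, PEG3 had 0.02, 0.06 and 0.03, and SNRPN had 0. MEST, with a nearly empty window, had 0.53, 0.44 and 0.48, close to the values of GNAS. The 6 genes with many window peaks thus lay in megabases with many peaks, so that the density at a gene and that of its region were not told apart.

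A further list of 91 imprinted genes and transcripts was written down by locus, with earlier results of these data known. It includes genes of the same domains as the 10 genes, some of them called on the same peaks, so it adds no independent support. Of the 91, 25 (27.5%) had an end peak in at least 2 replicates, against 10.2% of all genes, and 17 (18.7%) had one in all 3, against 5.84%. In the H19 and IGF2 domain 5 of 5 had one in at least 2 replicates, in the CDKN1C domain 6 of 9 and in the DLK1 and MEG3 domain 7 of 10. In the SNRPN domain of chromosome 15, 0 of 14 did, in the PEG3 domain 0 of 5 and in the MEST domain 0 of 5, and the first 2 of these domains had no window peak at any listed gene. Of 42 imprinted genes at other loci 7 (16.7%) had one. Genes of a domain overlap and share peaks, so these counts describe loci more than genes.

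The listed genes with the strongest end peaks in all 3 replicates came mainly from the same loci. INS and INS-IGF2 shared the peak described above. MIR433 had fold 4.61, 5.21 and 4.75 (4.86 ± 0.31, SD, n = 3), and its neighbour RTL1 had 4.60 ± 0.61. KCNQ1, a potassium channel gene that hosts KCNQ1OT1, had fold 3.69, 5.03 and 4.64 (4.45 ± 0.69). WT1, which encodes a transcription factor of kidney and gonad, and WT1-AS shared a peak of fold 3.72, 4.89 and 4.59 (4.40 ± 0.61). HM13, a signal peptide peptidase gene on chromosome 20, had fold 5.36, 3.84 and 4.36 (4.52 ± 0.77). MIR675, inside H19, had 4.33 ± 0.94, and AQP1, a water channel gene on chromosome 7, had fold 3.59, 4.06 and 4.53 (4.06 ± 0.47). All 10 had a peak in every replicate by the rule that chose them, so the folds are a description.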

How the data were processed

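AcNEIL1 ChIP-seq peaks of HCT116 were analysed from 3 peak tables, 1 per ChIP library. The inputs entered only as controls of these tables, and groups and replicate numbers came from the labels. Peaks were called with MACS 2.1.1.20160309 for each replicate on its own, at a q-value of 0.05 and with at most 2 tags kept per position, per the file headers. The tools Bowtie2, SAMtools, bedtools, cutadapt, Trim Galore and FastQC are named in the submitters' processing notes, with versions not given in the sources used here. Coordinates are hg38, per the file headers, and 1-based.

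The deposited signal is the pileup at the summit in tags, extended to 268, 294 and 249 bp in replicates 1, 2 and 3, with the larger of ChIP and input scaled down, per the file headers. The deposited p-value and q-value of each peak are on a −log10 scale. The deposited fold enrichment is a ratio of pileup to local background with 1 added to each. It served to describe and rank peaks and to recover the local background, whose floor was 3.13 ± 0.0353 tags (SD, n = 3).

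Gene bodies came from a RefSeq table of GRCh38.p14, the build of the peaks. It gives neither strand nor exons, so both gene ends were used and exon, intron and UTR positions were not analysed here. Rows outside the main sequence of a chromosome (679) were left out. A peak belongs to a window when at least 1 bp overlaps it, to an end when it overlaps 1 kb on either side of that end, and to the interior when it lies wholly between the end windows. Strand and promoters came from the RefSeq promoter table (250 bases before a start and 50 from it on), which holds no entry here for IGF2, CDKN1C, PHLDA2, DLK1 and PEG3. Starts within 500 bp were taken as 1.

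A gene without a peak is one where no peak was called at this depth. All 10 genes are named. Of the list of other imprinted genes, the rule names the 10 with an end peak in all 3 replicates and the best mean rank of end fold. Other genes are named where a merged region of window peaks lies within 1 kb of their end or a control region is near. The 10 genes and the lists were chosen with earlier results of these data known. Counts were set beside all genes without a test. Counting was tested on simulated peaks. Alternatives were stricter peaks, lists of equal length, summits in place of peaks, other flanks and end windows, and leaving out each replicate. Python 3.11.15, pandas 2.3.3, NumPy 2.4.6 and matplotlib 3.10.9 were used.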

Additional observations from a re-analysis of the deposited data

How the results depend on the processing

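The count of genes with a window peak, 7 in at least 2 and 7 in all 3 replicates, moved by less than 1.5 times under every alternative run. Over all genes the share ran from 21.4% to 46.4% in at least 2 replicates and from 13.9% to 37.4% in all 3. With peaks of −log10 q of 5 or more, 3 genes kept an end peak in at least 2 replicates (H19, MEG3 and DLK1, with 4.80% of all genes) in place of 5. An interior peak was kept by 3 (IGF2, MEG3 and GNAS, with 5.84% of all genes) in place of 5. The mean number of window peaks was then 46.3 in place of 108.7, and their median pileup 25.6 tags in place of 22.01; the filter admits fewer and stronger peaks by its construction. Flanks of 10 kb and 50 kb gave 68.7 and 218 window peaks, since the searched length changes. Leaving out each replicate in turn gave 4 to 5 genes with an end peak, 4 to 5 with an interior peak and 7 to 7 with a window peak. The shares of all genes were then 6.50% to 8.20%, 8.75% to 9.64% and 28.7% to 31.2%. The windows held 100 to 119.5 peaks, with a median pileup of 21.02 to 23 tags. Without replicate 2 or without replicate 3, CDKN1C lost its end call and H19 its interior call. The end call of CDKN1C was also lost with summits in place of whole peaks and with end windows of 500 bp. Windows of 5 kb added PHLDA2 to the end calls. With them, 21.2% of all genes had an end peak in at least 2 replicates and 7.12% an interior one. H19, 6.091 kb long, has no interior between windows of 5 kb, so its interior call was lost there by construction. For the 8 genes with a window peak, the mean number of window peaks moved by less than its SD in 39 of 56 values with all replicates kept, was higher in 6 and lower in 11; with a replicate left out it moved by less in 24 of 24. The number of replicates with an end peak was the same in 39 of 56, higher in 3 and lower in 14. No paired analysis was possible because the inputs, which share the replicate numbers of the ChIP libraries, have no values of their own here. Signal below the caller's cutoff is not in the lists, so at PEG3, SNRPN and, in replicates 1 and 3, MEST a weaker one was not detectable.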
